A study of Mus musculus with 6 samples.

Results

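Complement is a set of plasma and tissue proteins that mark particles and cells for removal. The 9 genes described here were taken by symbol: C1qa, C1qb and C1qc, which encode the chains of the recognition molecule C1q; C1ra, a protease of the C1 complex; C4b and C2, which form the C3 convertase of the classical and lectin pathways; C3, the component on which all pathways converge; Cfb, the protease of the alternative pathway convertase; and Serping1, the C1 inhibitor. All 9 were found by Entrez Gene identifier among 20007 identifiers, and 8 had enough counts to be tested. C2 did not.

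The study sequenced RNA of 6 mouse libraries on the BGISEQ-500 platform, 2 in each of 3 groups, all from KM mice. MEFs were embryonic fibroblasts labelled as 13.5 days post coitum, with an earlier day also named in the culture protocol. CiSCs carried the same embryonic age and had been made from passaged MEFs by inducing them towards Sertoli cells with small molecules, unnamed in the labels. MSCs were Sertoli cells, the nurse cells of the seminiferous tubule, plated in culture from testes at postnatal day 60. There was no group of passaged fibroblasts kept without compounds, so passage and compounds cannot be told apart, and MSCs differed from the other groups in age and tissue as well as cell type.

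In the classical pathway, C1q binds antibody or a damaged surface, and its attached proteases C1r and C1s cut C4 and then C2. The resulting convertase cuts C3, whose larger fragment coats the target. Factor B and factor D build a second convertase on deposited C3, and regulators such as the C1 inhibitor and factor I hold the cascade in check. The liver makes most plasma complement, C1q comes mainly from macrophages and dendritic cells, and fibroblasts and epithelial cells can make C1r, C1s, C3 and C4 locally. In the testis, Sertoli cells form the barrier behind which germ cells are shielded from immune attack, and macrophages reside in the surrounding interstitium.

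Each library held between 19294671 and 20418587 expected counts. Levels are CPM, which are counts relative to the library size after scaling by the trimmed mean of M values, given per library and as mean ± SD (n = 2). Whether libraries of 1 group derive from different cultures or animals is not labelled, so each p-value measures only the spread between these libraries, which may be technical. A group with 0 reads allows up to 3 reads over its libraries, or 0.0769 CPM for MEFs, 0.0709 CPM for CiSCs and 0.0806 CPM for MSCs, with counting error only. All 13 macrophage markers were above 0 in every group, with summed levels of 12935 and 20547 CPM in the MEF libraries, 35.3 and 53.1 CPM in the CiSC libraries and 1614 and 1522 CPM in the MSC libraries. The 8 fibroblast markers summed to 19150 and 20228 CPM in MEFs, 26737 and 27136 CPM in CiSCs, and 38315 and 41112 CPM in MSCs. The collagen genes Col1a1, Col1a2 and Col3a1 dominated these sums, and the markers did not move as a set. In MSCs against MEFs, 3 of the 8 were higher and 3 lower, where 22.5% of all tested genes were called higher and 20.0% lower. The 11 Sertoli cell markers summed to 1185 and 1401 CPM in MSCs against 89.3 to 118 CPM in the other libraries, with Fshr at 0 reads in MEFs and CiSCs and 8 reads in MSCs. Steroidogenic Leydig cell markers summed to 1360 and 1393 CPM in MSCs and to between 2.39 and 3.72 CPM elsewhere, with Cyp11a1, Star, Hsd3b1 and Insl3 at mean levels of 783, 425, 106 and 62.5 CPM in MSCs and Cyp17a1 and Lhcgr at 1 and 3 reads there. The 5 endothelial markers summed to 89.3 and 92.7 CPM in MSCs and to between 9.36 and 13.1 CPM elsewhere, and all 5 were higher in MSCs than in MEFs. Of these, Pecam1 and Tek passed the filter on low counts through MSCs, and Emcn passed without MEFs. A difference from MEFs was therefore built into the testing of these genes, and so into that count. Cdh5, the endothelial cadherin gene, stood at 56.9 CPM in MSCs and 0.614 CPM in MEFs. The summed Sertoli, Leydig and endothelial markers were highest in MSCs, as were the members C1ra, C4b, C3, Cfb and Serping1. Emcn, an endothelial marker, was instead highest in CiSCs, at 10.5 CPM against 5.27 CPM in MSCs. Between MEFs and CiSCs the Sertoli and Leydig sums did not fall, whereas C3 and C1ra did. The part of these markers in the results for those members was not tested. The 7 hepatocyte markers summed to between 2.87 and 5.05 CPM in each library. In bulk RNA, fewer cells of a type and less RNA per cell cannot be told apart.

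The promoter windows of the members that could be matched are shown because the C1q chain genes moved together across the libraries. C1ra and C3 did not follow them in MSCs. RefSeq windows on GRCm38.p6, a later build than the mm9 of the alignment, were matched for 4 of 9 members, each spanning 250 bases before to 50 bases after the start of transcription. C1qb lies at chr4:136886151-136886450 and C1qc at chr4:136892865-136893164, both on the minus strand and in neighbouring genes. C1ra lies at chr6:124512371-124512670 on the plus strand and C3 at chr17:57228087-57228386 on the minus strand. Capitals mark a match, on either strand, to 1 of 4 motifs: GAGGAA (a core bound by the myeloid factor PU.1), the core of the interferon-stimulated response element, TTCNNNGAA (a STAT site) and the NF-kB consensus.
C1qb: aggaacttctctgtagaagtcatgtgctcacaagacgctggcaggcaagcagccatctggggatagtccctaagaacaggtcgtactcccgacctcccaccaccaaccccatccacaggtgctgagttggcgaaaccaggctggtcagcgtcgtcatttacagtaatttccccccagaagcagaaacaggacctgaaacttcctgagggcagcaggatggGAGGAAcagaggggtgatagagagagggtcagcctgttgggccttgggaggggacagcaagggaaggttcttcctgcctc
C1qc: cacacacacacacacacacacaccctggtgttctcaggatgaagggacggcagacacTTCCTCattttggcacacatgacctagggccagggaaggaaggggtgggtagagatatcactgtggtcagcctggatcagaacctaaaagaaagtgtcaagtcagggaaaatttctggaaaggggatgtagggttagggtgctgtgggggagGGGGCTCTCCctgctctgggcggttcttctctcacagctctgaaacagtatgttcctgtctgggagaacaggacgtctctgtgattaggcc
C1ra: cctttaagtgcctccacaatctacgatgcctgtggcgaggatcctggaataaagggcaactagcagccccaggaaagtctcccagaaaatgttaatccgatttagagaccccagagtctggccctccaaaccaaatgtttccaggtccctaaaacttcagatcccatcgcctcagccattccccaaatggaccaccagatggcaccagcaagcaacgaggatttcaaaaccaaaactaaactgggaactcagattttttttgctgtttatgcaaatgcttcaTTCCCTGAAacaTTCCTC
C3: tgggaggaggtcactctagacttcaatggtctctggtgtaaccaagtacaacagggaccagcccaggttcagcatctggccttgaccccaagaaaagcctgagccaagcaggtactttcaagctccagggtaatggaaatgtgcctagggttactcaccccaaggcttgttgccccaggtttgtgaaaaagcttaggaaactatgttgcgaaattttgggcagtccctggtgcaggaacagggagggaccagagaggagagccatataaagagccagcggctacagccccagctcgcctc

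The C1qb window held GAGGAA once, starting at base -30, and the C1qc window held it once on the other strand, starting at base -193. C1qc also held the NF-kB consensus, starting at base -41. The C1ra window had TTCNNNGAA at base 33, which reads the same on both strands, and GAGGAA on the other strand at base 45. No match to any of the 4 motifs was found in these 300 bases of C3. Among 32851 RefSeq windows of this length, 28.3% held GAGGAA, 3.44% the interferon element core, 8.30% TTCNNNGAA and 8.46% the NF-kB consensus, and no overlap between matched motifs occurred in the windows printed. These matches describe letters only.

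The C1q chain genes were abundant in MEFs, lower in MSCs (9.78% to 11.3% of the MEF mean) and lowest in CiSCs, where each library had 18 to 58 reads of each. C1qa, which encodes the A chain, stood at 783 and 1361 CPM in the MEF libraries, 1.57 and 2.71 CPM in the CiSC libraries and 103 and 107 CPM in the MSC libraries. No group overlapped another. C1qb, the B chain gene, stood at 409 and 879 CPM in MEFs, 0.859 and 1.50 CPM in CiSCs and 67.7 and 67.3 CPM in MSCs. C1qc, the C chain gene, stood at 463 and 892 CPM in MEFs, 1.29 and 1.54 CPM in CiSCs and 73.5 and 79.3 CPM in MSCs. For each chain the second MEF library was the higher, by 1.74-fold for C1qa, 2.15-fold for C1qb and 1.93-fold for C1qc, while the MSC libraries lay close together.

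**Figure D1:**
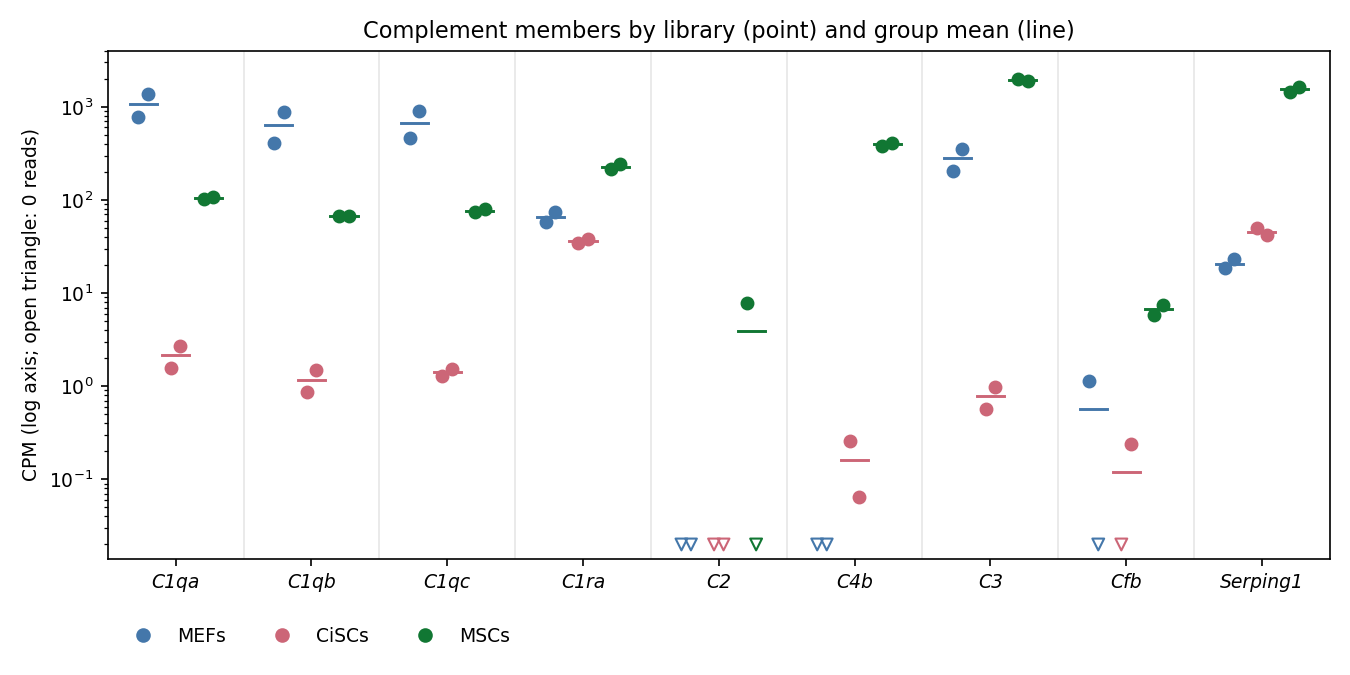
Level of each of the 9 complement members in CPM (log axis) in the 2 libraries of MEFs, CiSCs and MSCs, with points for libraries, lines for group means and open triangles at the foot for libraries with 0 reads. The C1q chain genes ran from MEFs down to MSCs and CiSCs, while C4b, C3 and Serping1 were highest in MSCs.

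In CiSCs against MEFs, C1qa fell by 8.96 ± 0.43 on the log2 scale (± SE; adjusted p = 2.65e-05, edgeR quasi-likelihood test with Benjamini-Hochberg adjustment), C1qb fell by 9.09 ± 0.53 and C1qc fell by 8.90 ± 0.43. In MSCs against MEFs the decreases were smaller. C1qa fell by 3.35 ± 0.32 on the log2 scale (adjusted p = 0.000384, edgeR), C1qb fell by 3.25 ± 0.38 and C1qc fell by 3.15 ± 0.32. The chain genes were also lower in CiSCs than in MSCs, with log2 fold changes of -5.61 ± 0.39, -5.83 ± 0.48 and -5.75 ± 0.39 in the order A, B, C (largest adjusted p = 0.000167, edgeR). These calls held when any of the 6 libraries was left out.

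The C1q chains assemble in equal numbers, and their genes kept similar proportions over this range. C1qb stood at 0.523 to 0.658 of the C1qa level in the 6 libraries and C1qc at 0.569 to 0.818, where the highest value, in the first CiSC library, rested on 27 and 33 reads. Macrophage markers moved with them across the groups, but not all did so between the MEF libraries. From the first MEF library to the second, the ratios of the 13 markers ran from 0.719 (Ptprc) to 2.37 (Spi1). Those of the chain genes ran from 1.74 to 2.15. Summed over the chains, C1q came to 12.8% and 15.2% of the summed macrophage marker level in the MEF libraries, 10.5% and 10.8% in the CiSC libraries and 15.1% and 16.6% in the MSC libraries. Lyz2, a lysozyme gene, dominated that sum, and without it the shares lay between 24.8% and 38.9%. The MSC levels of the chain genes, as shares of the MEF mean, lay inside the range of the 13 macrophage markers from 7.15% (Cx3cr1) to 20.2% (Mpeg1). In CiSCs those shares were 0.183% to 0.209%, again inside the markers' range of 0.112% (Csf1r) to 0.606% (Cd68). The part of these markers in the C1q differences was not tested.

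**Figure D2:**
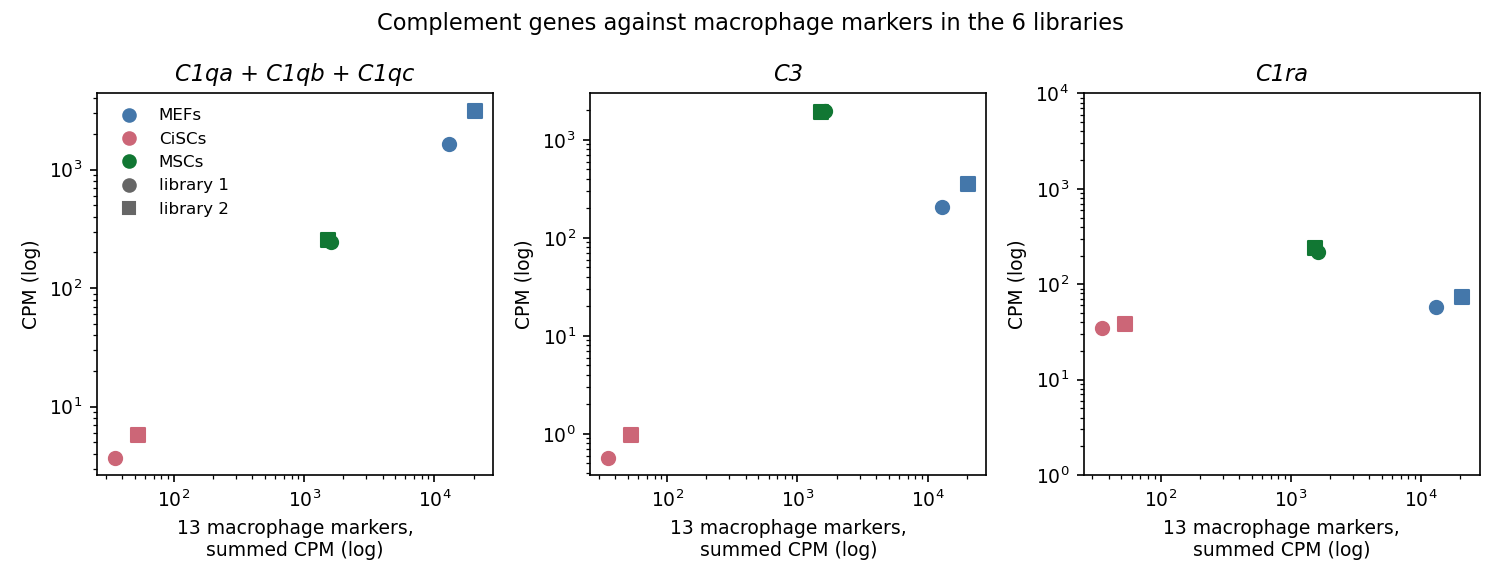
Summed C1q chain level (left), C3 (middle) and C1ra (right) in CPM against the summed CPM of 13 macrophage markers in each of the 6 libraries, all axes logarithmic. C1q rose with the markers over the 3 groups, whereas C3 and C1ra were highest in the MSC libraries, at intermediate marker levels.

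By the likeness of centred log2 CPM profiles over the 6 libraries, the nearest gene to each C1q chain was Clec12a, at a Euclidean distance of 0.250 log2 units from C1qa, 0.199 from C1qb and 0.414 from C1qc. Hcls1 and Fmnl1 followed for C1qa and C1qb, and Fmnl1 and Fcer1g for C1qc, with all distances at or under 0.504. Clec12a had a mean of only 0.0940 CPM in CiSCs, where its profile depends on the prior count of 2 reads added before taking logs. Hcls1 and Fmnl1, at 0.259 and 0.236 CPM there, depend on that prior count in part.

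The proteases of the C1 complex did not follow C1q. C1ra stood at 57.4 and 73.6 CPM in MEFs, 34.7 and 37.9 CPM in CiSCs and 215 and 242 CPM in MSCs, so that every MSC library lay above every other. Its level was 3.49-fold higher in MSCs than in MEFs (log2 fold change 1.80 ± 0.17, adjusted p = 0.000313, edgeR) and 1.80-fold lower in CiSCs than in MEFs (adjusted p = 0.00752, edgeR). The decrease in CiSCs did not pass without the first CiSC library (adjusted p = 0.0730, edgeR). C1s1, which encodes the partner protease C1s, rose in CiSCs from 51.9 ± 7.75 to 109 ± 3.92 CPM and reached 650 ± 76.0 CPM in MSCs. C1ra stood at 1.00 and 1.59 times the C1s1 level in the MEF libraries but at 0.326 to 0.361 times in the CiSC and MSC libraries. C1rb and C1s2 are near-identical copies that can share reads with these genes. When each pair was added up, the log2 fold changes of C1ra were -0.86 in CiSCs and 1.79 in MSCs against MEFs. The genes nearest to C1ra in profile were Xaf1, Gstt1 and Dgat2, at distances of 0.248 to 0.288.

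C3 moved with the C1q chain genes between MEFs and CiSCs but not in MSCs. It changed in the same direction as C1ra in all 3 comparisons, by more in each. It stood at 206 and 353 CPM in the MEF libraries, at 0.572 and 0.982 CPM in the CiSC libraries (12 and 21 reads) and at 1973 and 1904 CPM in the MSC libraries. The MSC libraries were the highest and the CiSC libraries the lowest, without overlap. Against MEFs, C3 rose 6.94-fold in MSCs (log2 fold change 2.79 ± 0.29, adjusted p = 0.000529, edgeR) and fell by 8.48 ± 0.41 on the log2 scale in CiSCs (adjusted p = 2.70e-05, edgeR). CiSCs against MSCs differed by -11.27 ± 0.45 (adjusted p = 1.33e-05, edgeR). Relative to the summed macrophage markers, C3 stood at 1.59% and 1.72% in MEFs and 1.62% and 1.85% in CiSCs, but at 122% and 125% in MSCs. C3 and the C1q chain genes were therefore in similar proportion in MEFs and CiSCs, at 0.259 to 0.364 C3 reads per C1qa read, against 19.2 and 17.8 in MSCs. Ccn5, Cxcl14 and Gatm had the nearest profiles to C3, at larger distances of 1.60 to 2.73. Ccn5 averaged 0.0945 CPM in CiSCs, where its profile depends on the prior count.

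C4b, whose product is cut by C1s, was read mostly in MSCs. It had 0 reads in both MEF libraries, 0.257 and 0.0641 CPM in the CiSC libraries and 382 and 412 CPM in the MSC libraries. Its level in MSCs was at least 5164-fold higher than in MEFs, taken against 3 reads over the group. The log2 fold change for CiSCs against MSCs was -11.39 ± 0.37. C4b passed the filter through MSCs alone, so a difference from MSCs was built into its being tested. No test against MSCs is therefore given for C4b by itself. The difference between CiSCs and MEFs, which rested on under 7 expected counts, did not pass (adjusted p = 0.0612, edgeR) but did by DESeq2 (adjusted p = 0.0334) and, by edgeR, with counts left unrounded (adjusted p = 0.0457) and when the second CiSC library was left out (adjusted p = 0.0347). C4a is a near-identical neighbour whose reads can be assigned to C4b or the reverse. C4a stood at 2.28 ± 0.247, 2.16 ± 0.123 and 4.93 ± 0.111 CPM in MEFs, CiSCs and MSCs. The sum of the pair was 7.46 log2 units higher in MSCs than in MEFs (adjusted p = 9.67e-06, edgeR), and its log2 fold change for CiSCs against MEFs was 0.02. The nearest profiles to C4b were those of Mrap, Akr1cl and Tcf21, all at most 0.103 CPM on average in MEFs and CiSCs, where that prior count sets the profile.

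C2 and Cfb, neighbouring paralogs that encode the proteases of the classical and alternative convertases, were low in all groups. C2 was read in the first MSC library alone, at 7.89 CPM, with 0 reads in the other 5 libraries, so it was not tested. Cfb stood at 1.14 and 0 CPM in MEFs, 0 and 0.242 CPM in CiSCs and 5.86 and 7.54 CPM in MSCs. Its mean was higher in MSCs than in MEFs (log2 fold change 3.50 ± 1.06) and lower in CiSCs than in MSCs (-5.75 ± 1.30). Cfb passed the filter through MSCs alone, so a difference from MSCs was built into its being tested. No test of Cfb against MSCs is therefore given. Leaving out 1 library moved the first value between 2.52 (without the second MEF library) and 10.04 (without the first, which leaves 0 reads in MEFs). It moved the second between -10.01 (without the second CiSC library, which leaves 0 reads in CiSCs) and -4.79 (without the first CiSC library). Against MEFs, CiSCs showed a log2 fold change of -2.25 ± 1.55 that did not pass (adjusted p = 0.284, edgeR), and it changed sign without the first MEF library. The expected counts of the pair can be split between overlapping transcripts. Added up, C2 and Cfb came to 13.7 and 7.54 CPM in the MSC libraries and to at most 1.14 CPM in any other. The sum was 4.17 log2 units higher in MSCs than in MEFs. The nearest profiles to Cfb were those of Ric3, Serpina3k and Myh14, at distances of 1.69 to 1.76. These genes averaged at most 0.686 CPM in MEFs and 0.118 CPM in CiSCs, where the prior count sets much of the profile.

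Serping1, which encodes the inhibitor of C1r, C1s and the lectin pathway proteases, passed as higher in CiSCs than in MEFs. It stood at 18.5 and 23.1 CPM in MEFs, 49.5 and 41.9 CPM in CiSCs and 1460 and 1653 CPM in MSCs, with no overlap between groups. The increase over MEFs was 2.20-fold in CiSCs (log2 fold change 1.14 ± 0.18, adjusted p = 0.00300, edgeR) and 74.8-fold in MSCs (6.23 ± 0.21, adjusted p = 1.17e-05, edgeR). CiSCs stayed 34.1-fold below MSCs (-5.09 ± 0.20, adjusted p = 1.33e-05, edgeR). The nearest profiles were those of Fgfr4, Bex2 and Podxl, at distances of 0.349 to 0.573. All 3 genes had 0 reads in MEFs and at most 0.142 CPM on average in CiSCs, so the prior count, not reads, set their profile outside MSCs.

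In CiSCs against MEFs, 1 of the 8 tested members was higher and 5 were lower, where 40.9% of all 15272 tested genes were called, 19.6% higher and 21.3% lower. In MSCs against MEFs, 5 were higher and 3 lower, where 42.5% of tested genes were called, 22.5% higher and 20.0% lower. In CiSCs against MSCs, 0 were higher and 8 lower, where 42.8% were called, 17.7% higher and 25.1% lower. The median log2 fold changes of the tested members were -5.36, 2.30 and -5.75 in these comparisons, against 0.00, 0.01 and -0.03 over all tested genes. C4b and Cfb passed the filter on low counts through MSCs, so a difference from MSCs was built into their being tested, and the comparisons share libraries.

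**Figure D3:**
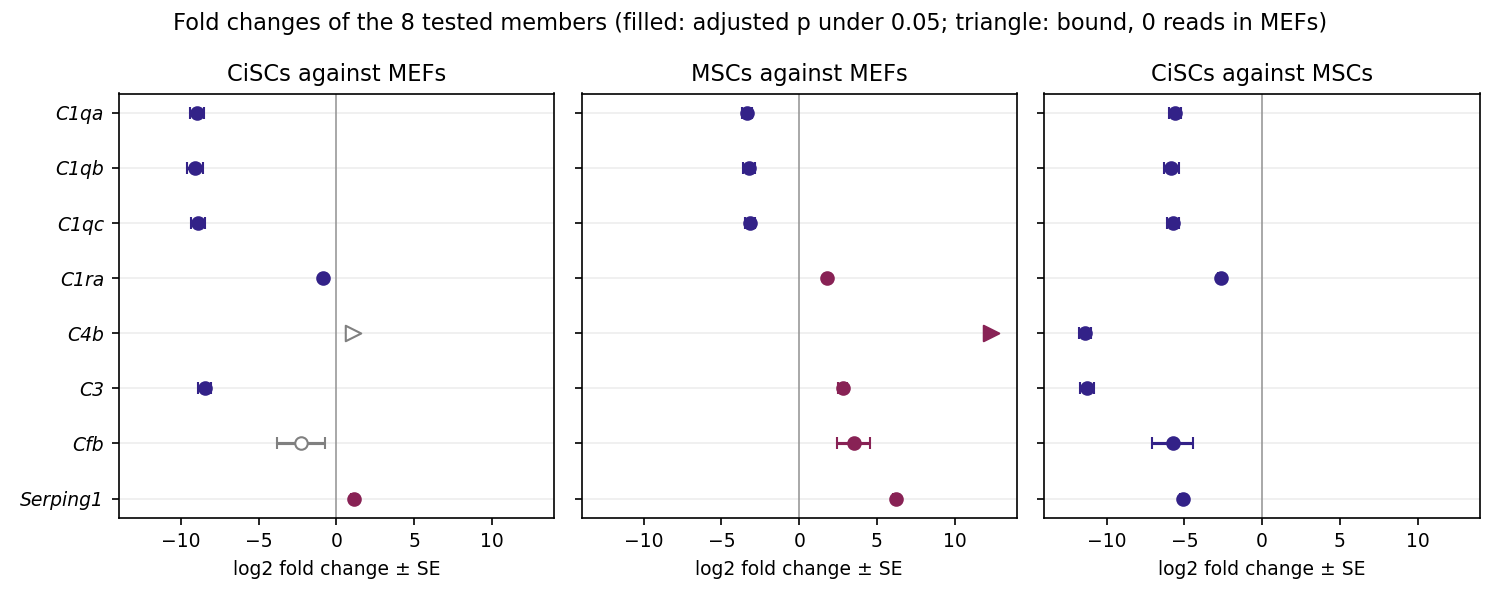
Log2 fold change ± SE of the 8 tested members in each of the 3 comparisons. Filled symbols passed at an adjusted p under 0.05, and triangles give the bound for C4b against the 0 reads of MEFs. All 8 members lay below 0 in CiSCs against MSCs, and in MSCs against MEFs the C1q chain genes lay on the opposite side from the others. C4b and Cfb passed the filter through MSCs alone, so their differences from MSCs were built into their being tested.

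Per kilobase of the longest coding transcript in GENCODE M21, the order of levels differed between groups. In MEFs the mean was 1030.5 ± 393 CPM per kb for C1qa, 592 ± 305 for C1qb and 563 ± 252 for C1qc, ahead of C3 at 54.4 ± 20.2, C1ra at 22.0 ± 3.85 and Serping1 at 11.8 ± 1.83. The SDs of the C1q chains overlapped there, but within each MEF library C1qa was above C1qb and C1qc. In CiSCs Serping1 led at 25.8 ± 3.05 CPM per kb, before C1ra at 12.2 ± 0.763 and C1qa at 2.06 ± 0.774. In MSCs Serping1 also led, at 880 ± 77.3 CPM per kb, followed by C3 at 377 ± 9.44, C1qa at 101 ± 2.52, C1ra at 76.7 ± 6.43 and C4b at 73.8 ± 3.93. The last pair, as well as C1qc (63.5 ± 3.40) and C1qb (62.0 ± 0.313), were within each other's spread.

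The other genes of the system were read from a list of 47, of which 43 were in the files and 34 were tested. In CiSCs against MEFs 8 were higher and 13 lower, in MSCs against MEFs 16 were higher and 12 lower, and in CiSCs against MSCs 4 were higher and 22 lower. The shares of all tested genes called in those directions were 19.6% and 21.3%, 22.5% and 20.0%, and 17.7% and 25.1%. Some listed genes passed the filter through a single group, such as Vsig4, C6 and C4bp through MSCs and Cpn2 through MEFs. Others, such as C7 and Cfi, passed without MEFs. Differences from those groups were built into the testing of these genes, and so into the counts. The median log2 fold changes of the list were -0.22, 0.79 and -1.57.

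Receptors for complement fragments fell in CiSCs. Of 8 tested receptor genes, 7 were lower than in MEFs and 0 higher, and 7 were lower than in MSCs, where 21.3% and 25.1% of all tested genes were called lower. C3ar1, the receptor for the C3a fragment, stood at 257 ± 69.9 CPM in MEFs, against 4.68 ± 0.268 CPM in CiSCs and 42.7 ± 0.183 CPM in MSCs. C5ar1, which binds C5a, stood at 127 ± 16.5, 0.447 ± 0.228 and 30.4 ± 0.259 CPM in the same order. Itgam and Itgb2, the chains of complement receptor 3, stood at 637 ± 122 and 331 ± 73.7 CPM in MEFs and at 2.00 ± 0.474 and 10.3 ± 0.844 CPM in CiSCs. Vsig4, a complement receptor of tissue macrophages, had 0 reads in MEFs and CiSCs and 3.15 ± 0.846 CPM in MSCs, at least 41.0-fold above MEFs. Vsig4 passed the filter through MSCs alone, so no test is given. Its place among the 7 receptor genes lower in CiSCs than in MSCs was therefore built in. Itgax, the alpha chain of complement receptor 4, was also higher in MSCs than in MEFs, at 12.8 ± 0.0352 against 5.92 ± 1.05 CPM (adjusted p = 0.0177, edgeR), although not without either MSC library (adjusted p = 0.109 and 0.108, edgeR). These receptors are expressed by leukocytes, whose markers moved as given above, and the part of those markers was not tested.

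Among soluble regulators, Clu rose in CiSCs against MEFs (adjusted p = 1.49e-05, edgeR). Cfi was also higher in CiSCs than in MEFs, and Cpn2 was lower. Cfi passed the filter without MEFs and Cpn2 through MEFs alone, so no test is given for either. Cfi, the protease that cuts C3b, rose from 0.0513 ± 0.000990 to 0.827 ± 0.112 CPM in CiSCs and stood at 3.82 ± 0.590 CPM in MSCs. It had 2 reads in MEFs. Clu, a chaperone that also binds the terminal complex, was among the highest of the list in CiSCs and MSCs, at 4377 ± 505 and 6191 ± 1894 CPM against 5.77 ± 0.148 CPM in MEFs. Cpn2, a carboxypeptidase subunit, had 1.97 ± 0.291 CPM in MEFs but only 2 reads over the CiSC libraries.

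Membrane regulators moved both ways, and Cd55 and Cd59a have near-identical copies, Cd55b and Cd59b, that can share their reads. Cd55, or decay-accelerating factor, stood at 84.5 and 81.4 CPM in MEFs, 2.27 and 2.70 CPM in CiSCs and 30.2 and 28.7 CPM in MSCs, a log2 fold change of -5.06 ± 0.17 in CiSCs against MEFs (adjusted p = 1.49e-05, edgeR). Cr1l, also called Crry, the broad rodent inhibitor of C3 deposition, stood at 46.9 ± 0.673, 39.8 ± 1.04 and 55.7 ± 0.468 CPM and did not pass against MEFs in either group. Cd59a, which blocks the membrane attack complex, was higher in MSCs, at 67.1 ± 0.644 CPM against 30.4 ± 7.11 CPM in MEFs and 26.4 ± 3.96 CPM in CiSCs. Susd4, a regulator with sushi domains, was highest in CiSCs at 2.95 ± 0.126 CPM, against 1 read in MEFs and 0.215 ± 0.00327 CPM in MSCs.

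Among initiators, Masp1, a lectin pathway protease gene, was highest in MEFs at 80.9 ± 38.1 CPM, with 27.6 ± 0.821 CPM in CiSCs and 8.77 ± 0.547 CPM in MSCs. The decrease in CiSCs passed (adjusted p = 0.00873, edgeR) but not without either CiSC library (adjusted p = 0.0567 and 0.0624, edgeR). Colec12, a scavenger receptor collectin, was higher in CiSCs, at 605 ± 24.2 CPM, than in MEFs (312 ± 19.5 CPM) and MSCs (181 ± 7.84 CPM). Colec11, a soluble collectin of the lectin pathway, stood at 212 ± 47.3, 173 ± 0.473 and 151 ± 1.52 CPM and passed in none of the comparisons. Cfp encodes properdin, which stabilises the alternative convertase and which leukocytes make. It stood at 380 ± 192 CPM in MEFs, against 12.6 ± 1.26 CPM in CiSCs and 23.0 ± 1.50 CPM in MSCs. Cfd, the factor D gene, had 1 read over all 6 libraries.

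Of the terminal components, C6 and C7, which insert after C5 cleavage, were highest in MSCs. Both passed the filter without MEFs, and C6 through MSCs alone, so no test is given. C6 stood at 0.180 ± 0.0317, 0.167 ± 0.169 and 11.9 ± 1.28 CPM in MEFs, CiSCs and MSCs. C7 had 0 reads in MEFs but stood at 1.63 ± 0.545 CPM in CiSCs and 5.50 ± 1.17 CPM in MSCs, at least 21.1-fold higher in CiSCs than in MEFs and at least 71.5-fold higher in MSCs. Hc, the mouse C5 gene, had 4, 2 and 6 reads in the 3 groups, too few to detect a difference here.

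**Figure D4:**
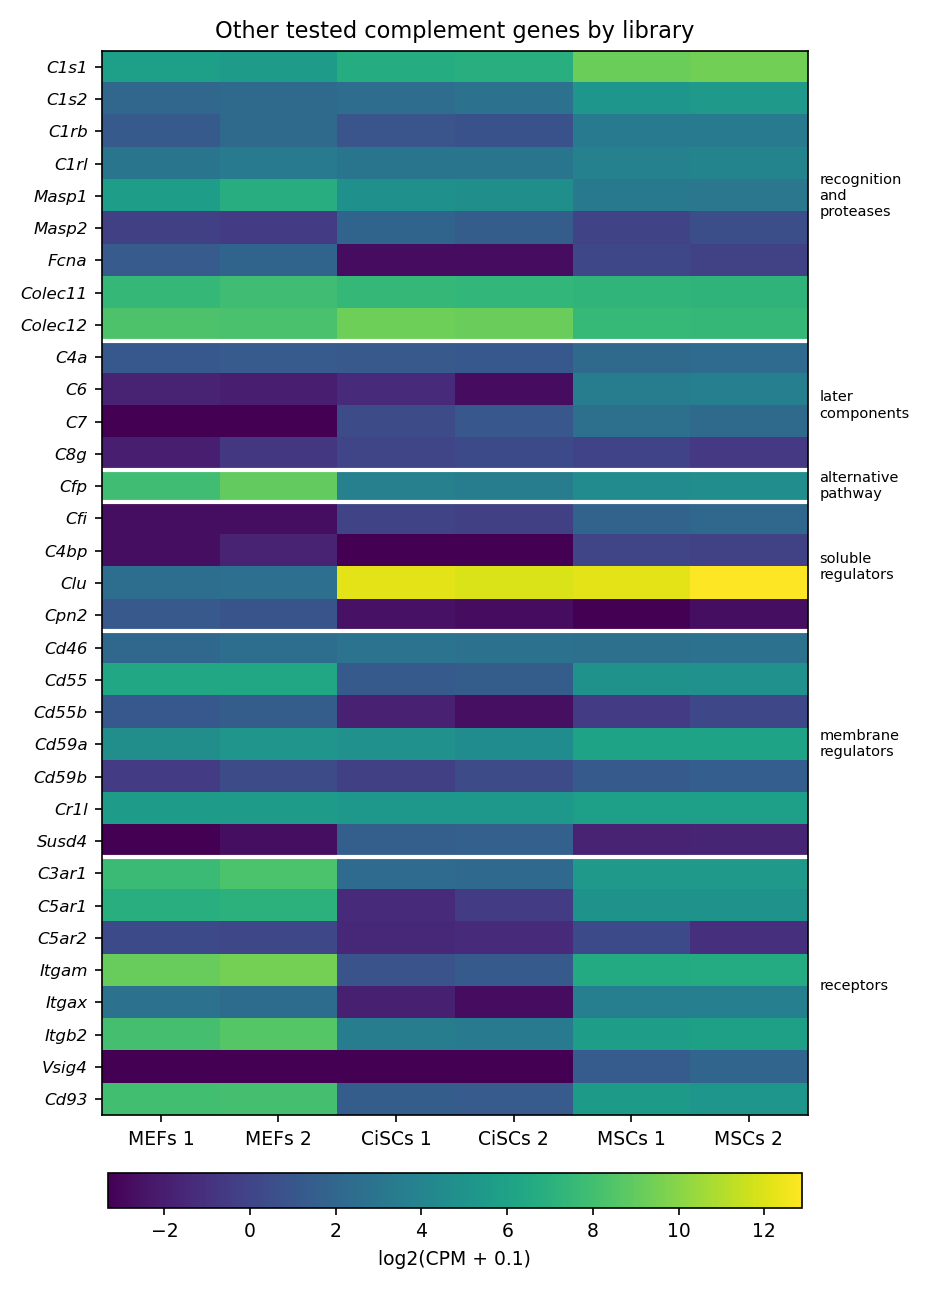
Levels of other tested complement genes in the 6 libraries, coloured by log2(CPM + 0.1) and grouped by role. Most receptor genes were darker in the CiSC libraries than in the others, Vsig4 was darkest in the MEF and CiSC libraries, and Clu was the brightest row in the CiSC and MSC libraries.

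Inflammatory and interferon genes, which are known to respond with several complement genes, were counted in the same libraries. Of all tested genes, 19.6% were called higher and 21.3% lower in CiSCs against MEFs, 22.5% and 20.0% in MSCs against MEFs, and 17.7% and 25.1% in CiSCs against MSCs. Of 12 interferon-responsive genes, 0 were higher and 6 lower in CiSCs than in MEFs, 7 higher and 2 lower in MSCs than in MEFs, and 10 lower in CiSCs than in MSCs. Their sum lay between 310 and 417 CPM in MEFs, 208 and 223 CPM in CiSCs, and 785 and 881 CPM in MSCs. Of 9 tested acute-phase and NF-kB genes, 1 was higher and 6 were lower in CiSCs than in MEFs, 4 were higher and 4 lower in MSCs than in MEFs, and 7 were lower in CiSCs than in MSCs. The part of these genes in the complement differences was not tested.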

How the data were processed

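Total RNA of 6 cultured mouse cell libraries had been sequenced. The authors deposited 1 file of expected counts (read counts estimated per gene, not always whole) per library under Entrez Gene identifiers. HISAT and mouse build mm9 had been used, per the submitters' processing notes. The counting program, annotation, strand and filters are not given in the sources used here. Of 20007 identifiers, 18891 matched a symbol in a RefSeq table of GRCm38.p6.

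After rounding, edgeR 4.0.16 in R 4.3.3 was run with its default filter on low counts, scaling by the trimmed mean of M values and 1 quasi-likelihood fit of 3 group means to all 6 libraries. Tests were two-sided, with Benjamini-Hochberg adjustment over 15272 genes and a threshold of 0.05. SEs of log2 fold changes were derived from the F values. Profiles were compared on log2 CPM with a prior count of 2. DESeq2 1.42.0 was an alternative. The procedure was tested on simulated data.

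The members and all gene lists were chosen with earlier results of these data known. Named were all 9 members, tested genes of the wider complement list, marker genes with the highest means and the 3 nearest profiles per member; C2, which was not tested, has none. Cx3cr1, Cd68, Ptprc, Spi1, Fshr, Cyp17a1, Lhcgr, Tek and Cfd were named after their values were seen. Of the wider list, 1 gene is counted but not reported here. Alternatives were each library left out, a replicate block, fits of only the groups compared, other scaling, no or a stricter filter (at least 5 CPM in 2 libraries), unrounded counts, raw totals for CPM, and, chosen after seeing the data, sums of near-identical genes.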

Additional observations from a re-analysis of the deposited data

How the results depend on the processing

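With 2 libraries a group, depth and spread limit what can be called, and a group left with 1 library was assumed to vary like the others. The calls of C1qa, C1qb, C1qc, C3 and Serping1 in all 3 comparisons kept their direction and their side of the threshold under every alternative run. Among members, C1ra lost its call in CiSCs against MEFs without the first CiSC library, and C4b passed in CiSCs against MEFs under 3 alternatives. Calls of Cfb against MSCs also changed, but that difference was built into its being tested, so they are not counted. For Cfb in CiSCs against MEFs, leaving out 1 library gave log2 fold changes of -6.54 to 4.29, the latter without the first MEF library. The cause was not tested. C2 was read in the first MSC library alone, so it could enter a fit only through MSCs. As with C4b and Cfb, its difference from MSCs was then built into its being tested, and so into the counts of members that follow. Leaving out 1 library gave 5 to 7 members called in CiSCs against MEFs, 7 to 8 in MSCs against MEFs and 7 to 9 in CiSCs against MSCs, with C2 also tested in 5 of the 6 fits since the filter depends on the smallest group. The same ranges were 19 to 25, 18 to 26 and 18 to 29 genes for the wider list, against 21, 28 and 26. Over all tested genes they were 3395 to 9487, 3516 to 9745 and 3910 to 9369, against 6250, 6497 and 6534. With at least 5 CPM in 2 libraries, which left 21 genes of the wider list to test, 13, 18 and 17 were called. With the replicate number as a block, 6, 7 and 8 members and 20, 25 and 27 genes of the wider list were called, and 5468, 5672 and 5814 of all genes. With the block, the only member whose call changed was Cfb in MSCs against MEFs, for which no test is given. Deviations of same-numbered libraries correlated at -0.215, 0.138 and -0.129 across genes. With only 1 difference between libraries in each group, these values cannot settle whether the numbers pair the libraries. On raw totals, levels moved by more than 1 SD for 6 of 27 members and groups.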

Other observations

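Of the 9 tested acute-phase and NF-kB genes, 4 were higher and 4 lower in MSCs than in MEFs, and the secreted ones differed among themselves. Lcn2, which encodes an iron-siderophore binding protein, stood at 0.910 and 0.676 CPM in the MEF libraries, 0.525 and 0.561 CPM in the CiSC libraries and 37.5 and 37.3 CPM in the MSC libraries, a log2 fold change of 5.55 ± 0.22 for MSCs against MEFs (adjusted p = 1.59e-05, edgeR). Hp, the haemoglobin scavenger haptoglobin, stood at 1.32 and 6.97 CPM in MEFs, 3.77 and 3.27 CPM in CiSCs and 62.0 and 78.0 CPM in MSCs. Lbp, which encodes the endotoxin binding protein, rose in both groups against MEFs, by 0.73 ± 0.18 log2 units in CiSCs (adjusted p = 0.0174, edgeR) and by 3.15 ± 0.19 in MSCs (adjusted p = 5.49e-05, edgeR). Saa3, a serum amyloid gene, stood at 16.2 and 81.8 CPM in MEFs and 26.8 and 30.5 CPM in MSCs, and did not pass (adjusted p = 0.364, edgeR). Orm1, which was not tested, had 0 reads in MSCs and 4 in MEFs. Tnf and Ccl2, which activated macrophages express, went the other way in MSCs, with log2 fold changes of -5.60 ± 0.20 and -4.00 ± 0.18 against MEFs. These genes were chosen from their list after their values were seen.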
